A study of Mus musculus with 11 samples.

Results

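The G1 gate was followed through 10 of the 12647 genes in the RNA-seq table: the D-type cyclins *Ccnd1*, *Ccnd2* and *Ccnd3*, the kinases *Cdk4* and *Cdk6*, the inhibitors *Cdkn1b* and *Cdkn2c*, and the pocket proteins *Rb1*, *Rbl1* and *Rbl2*. They were chosen by gene symbol, for their place in the pathway and apart from the inhibitors *Cdkn1a* and *Cdkn1c*. All 10 had a row in the table and passed the filter on low counts. LSKs, the Lin-Sca1+Kit+ cells of mouse bone marrow that hold HSCs and multipotent progenitors, were sequenced from p53+/+, p53R248W/+ and p53-/- mice on a C57BL/6 background, which gave 9 libraries (3 per genotype). The p53+/+ mice carry the humanized *p53* knock-in allele (HUPKI), in which human p53 sequence lies in the mouse locus. The p53R248W/+ mice carry the R248W substitution in 1 such allele, expressed from the mouse *Trp53* promoter, and the p53-/- mice lack p53. The paper describes its young mice as tumor free and gives no treatment for these cells. The humanized allele is stated for the first 2 genotypes and not for p53-/- mice. The labels do not say whether the 3 libraries of a genotype came from separate animals, so the p-values below measure the spread between these libraries.

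A quiescent stem cell rests outside the cycle. It enters and passes G1 when D-type cyclins, made in response to growth signals, bind and switch on the kinases Cdk4 and Cdk6. These complexes phosphorylate the pocket proteins Rb, p107 (*Rbl1*) and p130 (*Rbl2*), which then release the E2F factors that switch on genes for DNA replication. The INK4 protein p18 (*Cdkn2c*) binds the kinases and keeps cyclin D away, and p27 (*Cdkn1b*) binds cyclin and kinase complexes. In blood-forming cells Cdk6 is known as a kinase whose level marks how readily a resting stem cell enters the cycle, and p107 and p130 also sit in the DREAM complex, which holds cell cycle genes off in resting cells.

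Values are CPM, read counts scaled to the library total after TMM factors were applied. Totals ran from 18021375 to 29750702 counts per library. *Trp53* was read at 125, 207 and 376 CPM in p53+/+, at 219, 240 and 235 in p53R248W/+, and at 129, 127 and 112 in p53-/- libraries. The groups p53+/+ and p53-/- overlapped for this gene, and which exons the knockout lacks was not given in the sources used here. Reads were aligned to the mouse genome. How many reads from the human part of the humanized allele were counted is not known, so *Trp53* values may not be alike between genotypes. *Cdkn1a*, the p53 target that encodes p21, was lower in all 3 p53-/- libraries, at 17.8, 8.27 and 10.9 CPM, than in the p53+/+ libraries at 67.0, 44.0 and 43.6 (edgeR, log2 fold change -2.07, adjusted p = 0.00914). The LSK markers *Kit* and *Ly6a* (Sca1) were read in all 9 libraries, at 427 to 861 and 149 to 444 CPM. p53R248W/+ replicate 1 was the largest library and stood apart from the others on a principal component. Reads of Y-linked genes were found in 3 libraries, p53+/+ replicate 2 and p53R248W/+ replicates 2 and 3, at 110, 69.8 and 184 CPM. The first 2 of these also gave *Xist*, an RNA of female cells, at 65 and 149 CPM, and whether they are pools was not given. The p53-/- libraries gave at most 0.0491 CPM of Y-linked genes, so sex and genotype cannot be fully told apart. All libraries carry the same lane in their names. The p53-/- libraries are named in a style of their own, and whether they were prepared apart from the others was not given, so any such difference and genotype cannot be told apart.

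None of the 10 genes passed an adjusted p of 0.05 in any of the 3 comparisons of genotypes. Between p53-/- and p53+/+, 0 of 10 passed, beside 3.5% of the 12625 genes tested. Between p53R248W/+ and p53+/+, again 0 passed, beside 0.00792% of all genes. Between p53R248W/+ and p53-/-, 0 passed, beside 3.44%. At an unadjusted p under 0.05, only *Cdk6* was counted, in both comparisons with p53-/-, beside 23.4% and 21% of all genes, and no member in p53R248W/+ against p53+/+, beside 0.958%. With DESeq2, 1 member passed in each comparison with p53-/-, which was *Cdk6*, and 0 between p53R248W/+ and p53+/+, while limma-voom gave 0 in all 3. The libraries of the 2 genotypes did not overlap for 2 of 10 members in p53-/- against p53+/+, beside 31.4% of all genes, for 0 in p53R248W/+ against p53+/+, beside 5.04%, and for 1 in p53R248W/+ against p53-/-, beside 24.2%. The median of the log2 fold changes was -0.11, 0.02 and 0.12 over the members in the order given, and -0.00, 0.01 and 0.02 over all genes.

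**Figure D1:**
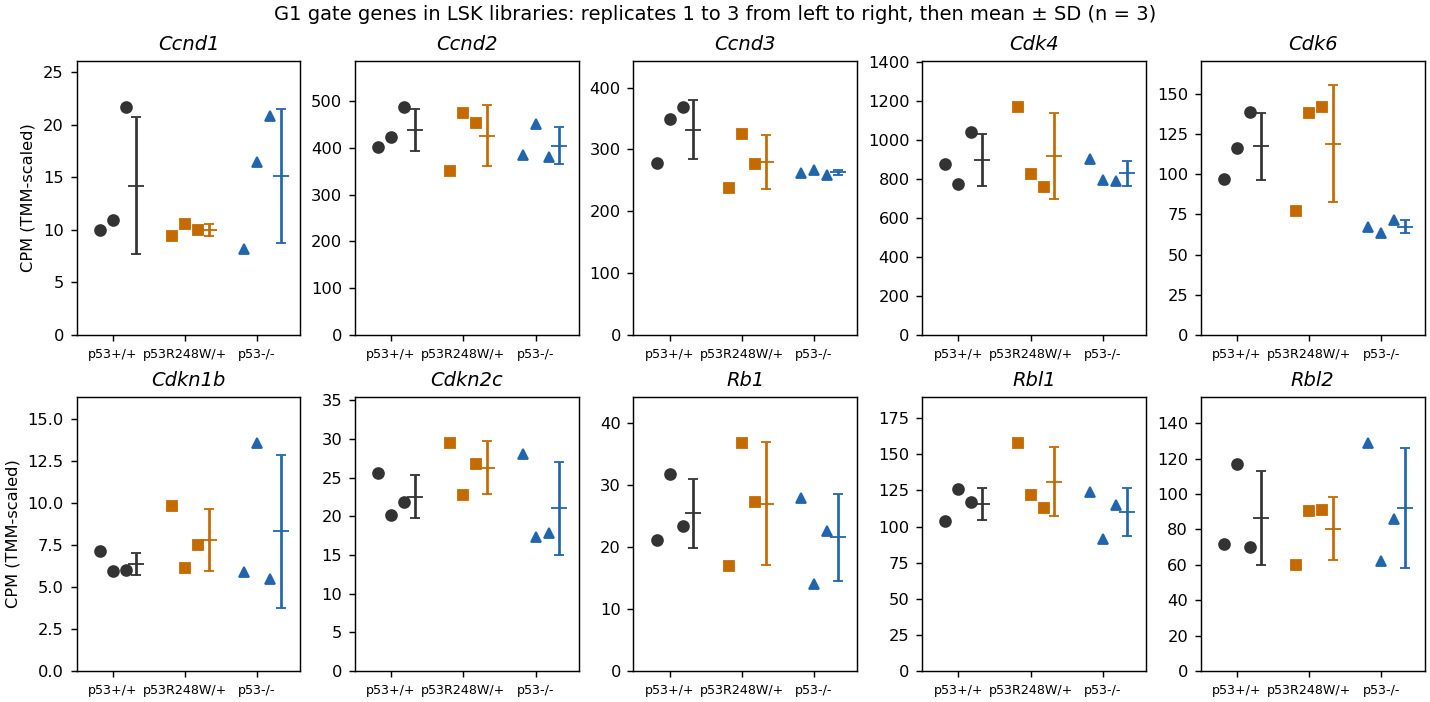
CPM (TMM-scaled, linear axes from 0) of the 10 genes in each library. Points are replicates 1 to 3 from left to right in p53+/+ (circles), p53R248W/+ (squares) and p53-/- (triangles), with the mean and SD (n = 3) beside them. The *Cdk6* values of p53-/- lie between 63.2 and 71.3, below all 6 others, while the groups overlap for the other genes except *Ccnd3*, which was lower in p53-/- than in p53+/+ libraries.

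How abundant each gene was relative to the others can be read only per length. With the gene lengths in the authors' table, RPKM, the CPM per kilobase of transcript, in p53+/+ LSKs were 666 ± 98.8 (SD, n = 3) for *Cdk4*, 147 ± 21.3 for *Ccnd3*, 75.8 ± 7.81 for *Ccnd2* and 47.6 ± 8.51 for *Cdk6*. These 4 did not overlap in their libraries. *Rbl1* at 21.4 ± 2.06 and *Rbl2* at 17.5 ± 5.41 did overlap, with ranges of 19.2 to 23.3 and 14.2 to 23.8. *Cdkn2c* followed at 9.99 ± 1.25, then *Rb1* at 5.48 ± 1.2, *Ccnd1* at 3.74 ± 1.73 and *Cdkn1b* at 2.65 ± 0.277, where *Rb1* and *Ccnd1*, and *Ccnd1* and *Cdkn1b*, overlapped. The order was the same in p53-/- LSKs, and in p53R248W/+ LSKs only *Ccnd1* and *Cdkn1b* changed places, at 2.63 ± 0.143 and 3.25 ± 0.776 RPKM. Part of this order rests on the lengths. The length in the table for *Cdk6* was 2470 bases, which equals its transcript Cdk6-201, while all its annotated exons together span 13989 bases. With the summed exons of GENCODE, *Cdk6* fell from place 4 to place 6 in p53+/+ LSKs, at 8.4 ± 1.5 RPKM, and *Ccnd2*, at 46.5 ± 4.79, stood above *Ccnd3*, at 37.8 ± 5.49.

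The D-type cyclins are the growth-signal arm of the gate. *Ccnd3* (GRCm38, chr17:47505051-47599689) gave 278, 349 and 369 CPM in p53+/+ libraries, 238, 325 and 276 in p53R248W/+ and 262, 267 and 259 in p53-/-. All 3 p53-/- values were below all 3 p53+/+ values, a pattern that 16% of all genes shared in that direction, and the difference did not pass the test (edgeR, log2 fold change -0.34, 95% interval -0.71 to 0.04, adjusted p = 0.259). The p53-/- libraries were close to each other, with an SD of 3.92 CPM, beside 48.2 in p53+/+ and 43.7 in p53R248W/+. *Ccnd2* (chr6:127125162-127152188) gave 401, 424 and 488 CPM in p53+/+, 351, 474 and 454 in p53R248W/+ and 384, 450 and 380 in p53-/- libraries. Here the 3 genotypes overlapped, and the log2 fold changes were -0.11 for p53-/- against p53+/+ (interval -0.48 to 0.26) and -0.04 for p53R248W/+ against p53+/+ (-0.41 to 0.33).

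*Ccnd1* (chr7:144929931-144939831), the lowest D-type cyclin in these cells, varied more between libraries of 1 genotype. It gave 9.98, 10.9 and 21.7 CPM in p53+/+, 9.41, 10.5 and 10 in p53R248W/+ and 8.21, 16.4 and 20.8 in p53-/- libraries. The p53R248W/+ libraries were alike, while p53+/+ replicate 3 and p53-/- replicates 2 and 3 were higher than the rest. The log2 fold change of p53R248W/+ against p53+/+ was -0.51 with an interval from -1.32 to 0.30, and without p53+/+ replicate 3 it was -0.06. For p53-/- against p53+/+ it was 0.09, with an interval from -0.71 to 0.90 that holds changes above 1.5-fold in either direction.

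*Ccnd3* held the largest share of the cyclin pool with the deposited lengths. Per length, *Ccnd3* made up 64.8% ± 1.97 (SD, n = 3) of the summed D-type cyclin RPKM in p53+/+ LSKs, 61.8% ± 1.54 in p53R248W/+ and 61.1% ± 1.97 in p53-/-. *Ccnd2* made up 33.6% ± 1.91, 36.9% ± 1.55 and 36.8% ± 1.87, and *Ccnd1* 1.62% ± 0.56, 1.33% ± 0.134 and 2.09% ± 0.89. The *Ccnd3* share in the p53+/+ libraries (63.0% to 66.9%) lay just above those of p53R248W/+ (60.0% to 62.9%) and p53-/- (58.9% to 62.7%), and the ranges nearly met. With the summed exon lengths *Ccnd2* became the larger share, at 53.4%, 57.1% and 56.4%, so which of the pair leads depends on the length used. These shares were not tested.

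**Figure D2:**
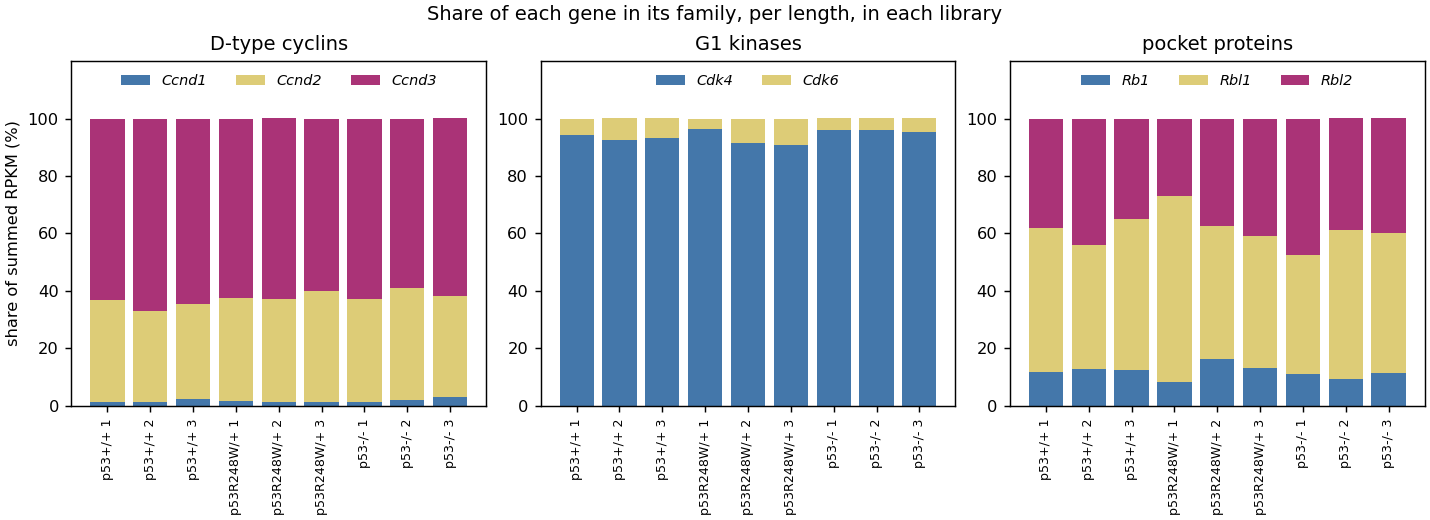
Share of each gene in the summed RPKM of its family (%), in each of the 9 libraries, with the gene lengths in the authors' table. *Ccnd3* holds 58.9% to 66.9% of the D-type cyclins in every library, *Cdk6* holds 3.45% to 9.28% of the kinase pair, and *Rbl1* holds 41.5% to 64.9% of the pocket proteins, with its largest share in p53R248W/+ replicate 1.

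Cdk4 and Cdk6 are the kinases that the D-type cyclins switch on. *Cdk4* (chr10:127063535-127067288), the most abundant member per length, gave 877, 774 and 1038 CPM in p53+/+, 1169, 824 and 756 in p53R248W/+ and 902, 795 and 787 in p53-/- libraries. The genotypes overlapped, and p53R248W/+ replicate 1 was the highest of all. The log2 fold change was -0.11 for p53-/- against p53+/+ (interval -0.53 to 0.30) and 0.03 for p53R248W/+ against p53+/+ (-0.39 to 0.45).

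*Cdk6* (chr5:3341004-3531008) gave 97.3, 116 and 139 CPM in p53+/+, 76.8, 138 and 142 in p53R248W/+ and 67.3, 63.2 and 71.3 in p53-/- libraries. The p53-/- libraries were the lowest of the 9, with p53R248W/+ replicate 1 just above them. Across all genes, 1057 of 12625 (8.37%) had all 3 p53-/- libraries below the other 6. The mean of p53-/- LSKs was 67.3 ± 4.07 CPM (SD, n = 3), beside 118 ± 21 in p53+/+ and 119 ± 36.5 in p53R248W/+.

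The *Cdk6* level in p53-/- was 0.572 times that in p53+/+ LSKs (interval 0.403 to 0.813). On the log2 scale this was -0.80 with a standard error of 0.23, and it missed the threshold after adjustment over all genes (edgeR, adjusted p = 0.069). Of all genes, 6.79% had a smaller p. In p53R248W/+ against p53-/- the log2 fold change was 0.82 (0.32 to 1.33, adjusted p = 0.0711), and in p53R248W/+ against p53+/+ it was 0.02 (-0.49 to 0.52, adjusted p = 1). The first 2 of these rest on the same p53-/- libraries, and p53+/+ libraries enter the first and the last.

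Whether *Cdk6* passed differed between settings. For p53-/- against p53+/+ its log2 fold change lay between -0.92 and -0.66 in 18 other ways of fitting, and its adjusted p between 0.0122 and 0.254, below 0.05 in 4 of them. Without p53R248W/+ replicate 1, which is in neither group of this comparison but adds to the shared spread, the log2 fold change was -0.79 with an adjusted p of 0.0122, where 11.7% of all genes passed. In a fit to the 6 libraries of the comparison it was -0.81 with an adjusted p of 0.0248, where 7.13% of all genes passed. With DESeq2 the adjusted p was 0.0156, where 12.3% passed. With a replicate block, which also grouped the p53-/- libraries by number, the adjusted p was 0.0433, where 6.99% passed. For p53R248W/+ against p53-/- it passed in 2 of 18, with DESeq2 (adjusted p = 0.015, where 10.5% of all genes passed) and without p53R248W/+ replicate 1 (log2 fold change 1.03, adjusted p = 0.00531, where 12.3% passed). Without the 3 libraries that had Y-linked reads, the log2 fold change was -0.81 for p53-/- against p53+/+ and 0.18 for p53R248W/+ against p53-/-. In the latter, p53R248W/+ replicate 1 was the only library left of its genotype.

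**Figure D3:**
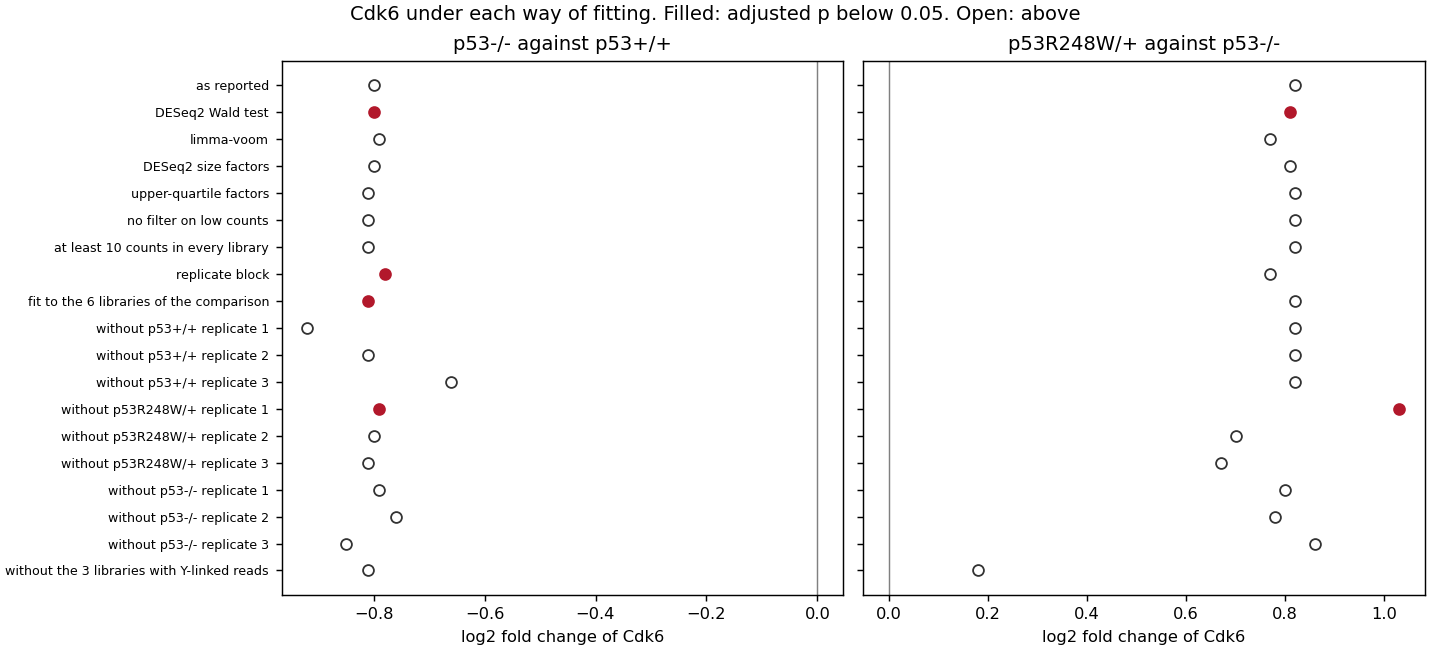
Log2 fold change of *Cdk6* under each way of fitting, for p53-/- against p53+/+ (left) and p53R248W/+ against p53-/- (right). Filled points have an adjusted p below 0.05 and open points do not. The left values lie between -0.92 and -0.66, and the right values between 0.67 and 1.03 except for 0.18 without the 3 libraries that had Y-linked reads.

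*Cdk6* made up 6.69% ± 0.929 (SD, n = 3) of the summed *Cdk4* and *Cdk6* RPKM in p53+/+ LSKs, 7.03% ± 3.13 in p53R248W/+ and 4.26% ± 0.408 in p53-/-. The p53-/- libraries, from 3.91% to 4.71%, lay below the p53+/+ libraries, from 5.70% to 7.55%, while p53R248W/+ ran from 3.45% to 9.28%. With summed exon lengths the shares were 2.97%, 3.14% and 1.86%. These shares were not tested. LSKs are a mixture of cell types, so fewer cells that express a gene and less of its RNA per cell cannot be told apart in these bulk libraries.

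The 250 bases before an annotated start of each kinase gene are printed because *Cdk6* was the member nearest to the threshold and Cdk4 is its partner kinase. The windows are from RefSeq on GRCm38.p6, + strand, chr10:127063285-127063534 for *Cdk4* and chr5:3343643-3343892 for *Cdk6*. The *Cdk4* window ends where the gene span begins. The *Cdk6* window lies inside the gene span, before an annotated start downstream of its first base, so distances to the start are not alike for the pair. Capitals mark E-boxes (CACGTG, which reads the same on both strands and is bound by Myc and Mycn with Max).
Cdk4: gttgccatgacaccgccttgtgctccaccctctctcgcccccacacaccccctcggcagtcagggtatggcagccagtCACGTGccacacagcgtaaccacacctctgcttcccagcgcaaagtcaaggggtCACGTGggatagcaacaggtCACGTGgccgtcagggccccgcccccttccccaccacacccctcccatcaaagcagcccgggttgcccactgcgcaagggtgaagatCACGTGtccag
Cdk6: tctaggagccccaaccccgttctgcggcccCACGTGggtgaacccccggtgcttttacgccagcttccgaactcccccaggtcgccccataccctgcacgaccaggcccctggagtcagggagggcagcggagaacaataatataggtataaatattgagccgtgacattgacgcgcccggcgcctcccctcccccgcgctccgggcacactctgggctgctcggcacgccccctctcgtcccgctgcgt

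The *Cdk4* window held 4 E-boxes, beginning 172, 118, 98 and 11 bases before the start, and the *Cdk6* window held 1, at 220 bases. Of 32851 such windows in the RefSeq table, 6.02% held at least 1. For 7 of the 10 members 9 windows were found, and *Ccnd1*, *Ccnd2* and *Rb1* had none in the table. Motifs were searched on both strands. The E2F motif, searched as TTCCCGC, as TTCGCGC, as TTGCCGC and as TTGGCGC, lay in 1 window each of *Rbl1* and *Cdkn2c*, beside 7.89% of all windows. A CHR motif (TTTGAA) lay in the *Rbl2* window, beside 16.0%. A FOXO motif (GTAAACA) lay in 1 window of *Ccnd3*, beside 3.17%. An AP-1 motif (TGAGTCA) was in none of the 9 windows, beside 4.46%. A GC box (GGGCGG) was found in a window of *Ccnd3*, *Cdk4*, *Cdkn1b*, *Cdkn2c* and *Rbl1*, beside 32.7%. These are matches of letters and not measured sites.

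The inhibitors hold the kinases in check. *Cdkn1b* (chr6:134920401-134925525) gave 7.15, 5.98 and 6.02 CPM in p53+/+, 9.81, 6.11 and 7.50 in p53R248W/+ and 5.88, 13.6 and 5.50 in p53-/- libraries. A single library, p53-/- replicate 2, was the highest, and the other 2 of that genotype were below the p53+/+ values. The log2 fold change of p53-/- against p53+/+ was 0.39 (-0.42 to 1.19) and without p53-/- replicate 2 it was -0.17. *Cdkn2c* (chr4:109660876-109666756) gave 25.6, 20.1 and 21.9 CPM in p53+/+, 29.5, 22.7 and 26.7 in p53R248W/+ and 28.0, 17.3 and 17.8 in p53-/- libraries. The genotypes overlapped, with log2 fold changes of -0.10 (-0.61 to 0.41) for p53-/- and 0.23 (-0.28 to 0.73) for p53R248W/+ against p53+/+.

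The pocket proteins, which the kinases inactivate, overlapped in all comparisons. *Rbl1* (chr2:157145893-157204534) gave 104, 126 and 117 CPM in p53+/+, 158, 122 and 113 in p53R248W/+ and 124, 91.2 and 115 in p53-/- libraries. Its interval was among the narrower ones, with log2 fold changes of -0.07 (-0.48 to 0.33) for p53-/- and 0.18 (-0.22 to 0.59) for p53R248W/+ against p53+/+. *Rbl2* (chr8:91070057-91123844) gave 71.9, 117 and 70.2 CPM in p53+/+, 60.0, 90.5 and 90.9 in p53R248W/+ and 129, 62.2 and 85.8 in p53-/- libraries. Every genotype held a library near 60 or 70 CPM and 1 or 2 above 90, and the log2 fold changes were 0.10 (-0.53 to 0.72) and -0.10 (-0.73 to 0.52).

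*Rb1* (chr14:73192858-73325951) gave 21.2, 31.7 and 23.3 CPM in p53+/+, 16.9, 36.8 and 27.3 in p53R248W/+ and 27.9, 14.1 and 22.6 in p53-/- libraries. Its lowest values were in p53-/- replicate 2 and p53R248W/+ replicate 1, the same libraries in which *Rbl2* was lowest and *Cdkn1b* was highest. The log2 fold change was -0.24 (-0.93 to 0.46) for p53-/- and 0.09 (-0.60 to 0.78) for p53R248W/+ against p53+/+. Per length, *Rb1* made up 12.3% ± 0.389 (SD, n = 3) of the pocket protein RPKM in p53+/+ LSKs, 12.5% ± 4.12 in p53R248W/+ and 10.5% ± 1.02 in p53-/-. *Rbl1* made up 48.7% ± 4.95, 52.4% ± 10.8 and 47.3% ± 5.25, and *Rbl2* 39.0% ± 4.69, 35.1% ± 7.18 and 42.2% ± 4.69.

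How large a change could have been missed is given by the intervals. The 95% interval lay within a 2-fold change in either direction for 8 of 10 members in p53-/- against p53+/+, for 8 in p53R248W/+ against p53+/+ and for 7 in p53R248W/+ against p53-/-. The members whose interval reached past 2-fold were *Ccnd1*, *Cdkn1b*, *Cdk6* or *Rb1*, so a 2-fold difference of those was not excluded in at least 1 comparison. The median size of the log2 fold change was 0.11 over the members and 0.33 over all genes in p53-/- against p53+/+, 0.14 and 0.13 in p53R248W/+ against p53+/+, and 0.23 and 0.30 in p53R248W/+ against p53-/-.

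**Figure D4:**
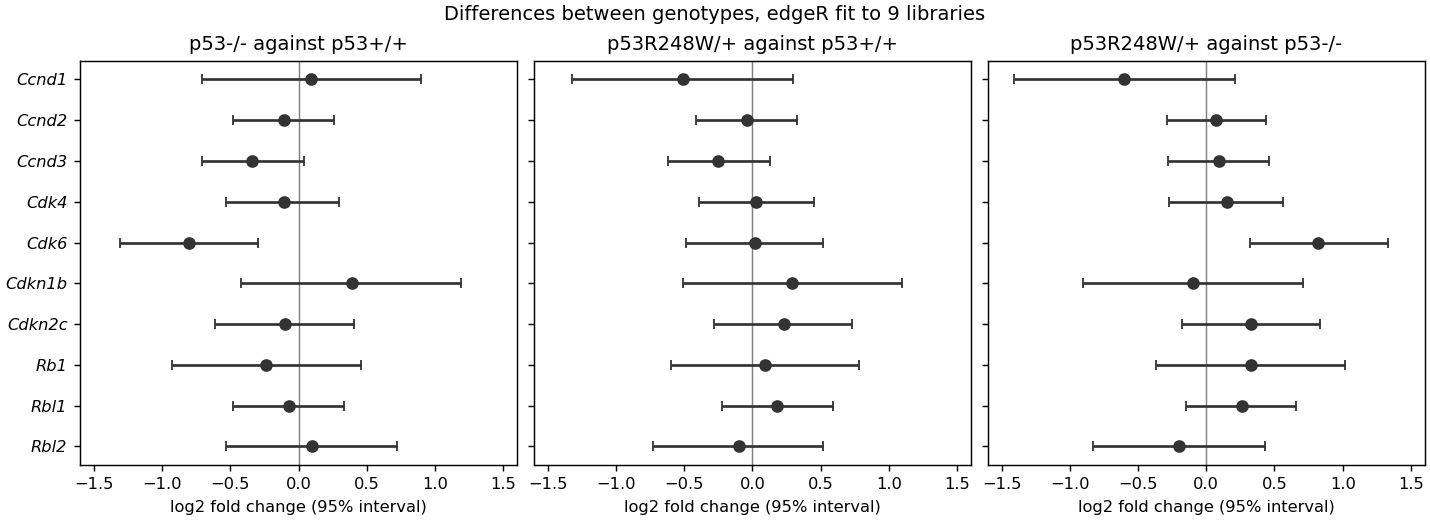
Log2 fold changes with 95% intervals of the 10 genes in the 3 comparisons, from the edgeR fit to 9 libraries (3 per genotype). Only the *Cdk6* intervals in the comparisons with p53-/- leave out 0, from -1.31 to -0.30 and from 0.32 to 1.33, and neither passed after adjustment over all genes.

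The direct neighbours of the gate gave the following in p53-/- against p53+/+ LSKs. Of 21 other G1 genes tested, 1 rose and 1 fell, beside 1.25% and 2.25% of all genes, with a median log2 fold change of 0.20. The one that fell was *Cdkn1a*. *Mycn*, a Myc family factor that drives growth, rose from 68.0, 74.8 and 86.3 CPM to 129, 149 and 126 (log2 fold change 0.82, adjusted p = 0.0294). *Cdkn1c*, which encodes p57, gave 17.5, 9.91 and 10 CPM in p53+/+ and 14.5, 24.3 and 14.6 in p53-/- libraries (log2 fold change 0.51, adjusted p = 0.328). For the next kinase, *Cdk2*, the log2 fold change was 0.28, and for its cyclins *Ccne1* and *Ccne2* it was -0.65 and 0.45, none of them past the threshold. *Cdkn2a*, *Cdkn2b* and *Cdk3* were not among the genes tested. Of the 21 other G1 genes, 4 had an unadjusted p under 0.05 (edgeR), beside 23.4% of all genes.

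Of the 19 E2F, DP and DREAM genes that work with the pocket proteins, 1 fell and 0 rose, with a median of -0.13. The one that fell was *Mybl2* (B-Myb), from 60.1 ± 15.3 to 29.8 ± 5.94 CPM (n = 3, edgeR, log2 fold change -1.01, adjusted p = 0.0455). With limma-voom its adjusted p was 0.0586 and 0 of the 19 passed, and 2 did with DESeq2. The activator E2Fs *E2f1*, *E2f2* and *E2f3* gave log2 fold changes of -0.54, -0.53 and -0.05. The other E2Fs, *E2f4* to *E2f8*, gave -0.64, 0.35, 0.09, -0.69 and -0.80. None of these 8 passed the threshold. Of the 19 genes, 9 had an unadjusted p under 0.05 (edgeR), beside 23.4% of all genes. *E2f1*, *E2f2*, *E2f4*, *E2f7* and *E2f8* each had such a p.

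Further down the pathway the values lay lower. Of 30 replication genes that E2F switches on, 29 had a negative log2 fold change in p53-/- against p53+/+ LSKs, with a median of -0.35 where all genes had -0.00 and 50.1% of them were negative. 1 passed the threshold, *Lig1* (DNA ligase I), which fell from 227 ± 57.2 to 106 ± 8.92 CPM (n = 3, edgeR, log2 fold change -1.10, adjusted p = 0.0274). Of the 30, 10 had an unadjusted p under 0.05 (edgeR), beside 23.4% of all genes. All 25 G2/M genes had a negative log2 fold change, with a median of -0.88, and 6 of them fell, beside 2.25% of all genes. With DESeq2 14 passed, where 12.3% of all genes did, and with limma-voom 5, without *Mki67* (adjusted p = 0.052). Of the 25, 19 had an unadjusted p under 0.05 (edgeR), beside the same 23.4%. The 6 that fell were the centromere proteins *Cenpf* (-2.89, adjusted p = 0.00671) and *Cenpe* (-2.15), the proliferation marker *Mki67* (-2.34), the mitotic kinesins *Kif20a* (-1.79) and *Kif11*, and topoisomerase *Top2a* (-1.64). The paper scored quiescence by staining cells for Ki67, the protein of *Mki67*, and for DNA. It reports lower quiescence of LSKs without p53, and no effect of mutant p53. Lower *Mki67* RNA in p53-/- LSKs runs against that staining result, and the reason was not tested. In p53R248W/+ against p53+/+ LSKs none of the genes of these 4 lists passed (edgeR), with 0 at an unadjusted p under 0.05, 0 with DESeq2 and 0 with limma-voom. The medians there were 0.07, -0.03, -0.08 and 0.07. In p53R248W/+ against p53-/-, the 6 G2/M genes named above were higher in p53R248W/+, as were *Pola1* and *Cdkn1a*, and *Mycn* was lower, beside 2.34% of all genes that were higher and 1.1% that were lower. The p53-/- libraries are shared with the first comparison. These calls were sensitive to single libraries. Of the 20 genes outside the gate that are given here by name as rising or falling in p53-/- against p53+/+, apart from *Kif11*, between 3 and 6 passed when p53+/+ replicate 2 or 3 or a p53-/- library was left out, and 17 to 20 when another library was. *Cdkn1a*, *Cenpf* and *Tfrc* passed in all 9 of these fits, *Mki67* and *Lig1* in 4, *Mycn* in 3 and *Mybl2* in 2.

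**Figure D5:**
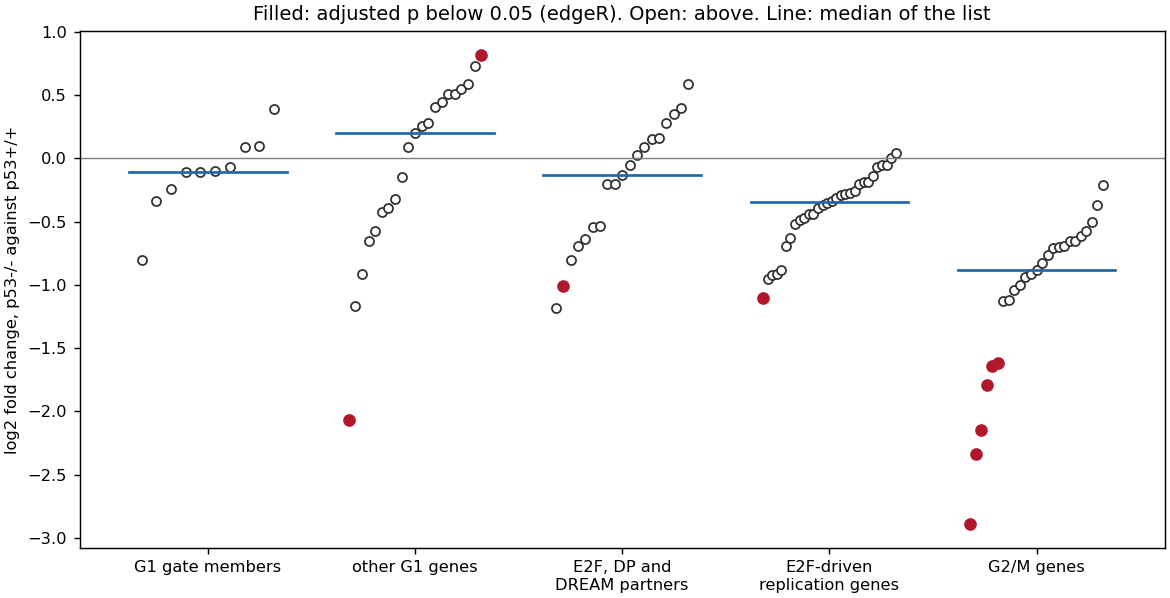
Log2 fold change of p53-/- against p53+/+ for each gene tested, by list and in order of value. Filled points have an adjusted p below 0.05 (edgeR), open points do not, and lines are medians. The members centre on -0.11, the other G1 genes on 0.20, the E2F, DP and DREAM genes on -0.13, the replication genes on -0.35 and the G2/M genes on -0.88.

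The genes whose log2 CPM followed *Cdk6* most closely over the 9 libraries, out of 12624 compared, were *Rufy1* (Pearson r = 0.99), *Mki67* (0.98) and *Mapk7* (0.98). These are measures of likeness across libraries of 3 genotypes and were not tested. *Mki67* gave 68.3, 108 and 121 CPM in p53+/+, 28.2, 124 and 134 in p53R248W/+ and 17.1, 19.7 and 22.0 in p53-/- libraries. As with *Cdk6*, p53R248W/+ replicate 1 was the lowest library outside p53-/-, and p53+/+ replicate 1 came next. Among the other members, the likeness to *Cdk6* ran from -0.41 for *Cdkn1b* to 0.74 for *Ccnd3*.

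Summed levels of some marker lists of cell types within and beside the LSK gate differed between the p53-/- and the other libraries. Few of their genes passed with edgeR and often more with DESeq2. The part of these lists in the *Cdk6* values was not tested. The lists are not separate, since 4 of the 15 long-term HSC markers and 5 of the 13 multipotent progenitor genes are also in another list. Of all genes, 1.25% rose and 2.25% fell in p53-/- against p53+/+. Summed over 15 genes, long-term HSC markers ran from 638 to 971 CPM in p53+/+, 649 to 883 in p53R248W/+ and 1296 to 1414 in p53-/- libraries, and 1 of them, *Hlf*, rose. With DESeq2 5 of these passed, where 12.3% of all genes did, and with limma-voom 1. At an unadjusted p under 0.05 (edgeR) there were 7, beside 23.4% of all genes. Of the 15, 11 had a positive and 4 a negative log2 fold change. *Hlf* alone had means of 171 CPM in p53+/+ and 377 in p53-/- libraries. Summed over 13 genes, multipotent progenitor genes ran from 7954 to 8545, 9125 to 11692 and 5145 to 5964 CPM, and 2, *Dntt* and *Irf8*, fell (*Dntt* had an adjusted p of 0.0509 with limma-voom). With DESeq2 7 of these passed and with limma-voom 1, and 8 had an unadjusted p under 0.05 (edgeR). Of the 13, 2 had a positive and 11 a negative log2 fold change. *Dntt* alone had means of 1556 CPM in p53+/+ and 787 in p53-/- libraries. Immediate early and heat shock genes, which respond to handling of cells, ran from 4840 to 7245, 4024 to 9754 and 2910 to 4809 CPM over 18 genes. 4 of these fell, *Fos*, *Jun*, *Hspa1a* and *Hsp90aa1*, and the p53-/- sums lay below the p53+/+ sums. With DESeq2 9 passed and with limma-voom 3, without *Hspa1a* (adjusted p = 0.314).

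The other marker lists gave few calls in the same comparison. Granulocyte and monocyte markers ran from 3050 to 8633 CPM in p53+/+, 4638 to 10106 in p53R248W/+ and 2341 to 2656 in p53-/- libraries, with 0 of 13 past the threshold (edgeR), 2 with DESeq2, 0 with limma-voom and 7 at an unadjusted p under 0.05. Erythroid markers ran from 798 to 1004, 820 to 981 and 1304 to 1652 CPM, where *Car2* rose and *Tfrc*, the transferrin receptor of dividing cells, fell. *Car2* gave most of this sum, with means of 791 CPM in p53+/+ and 1430 in p53-/- libraries. Of the 8 erythroid genes tested, 3 had a positive and 5 a negative log2 fold change, with a median of -0.58. Megakaryocyte markers ran from 156 to 206, 163 to 168 and 145 to 163 CPM, with 0 of 7 past the threshold (edgeR), 2 with DESeq2, 0 with limma-voom and 4 at an unadjusted p under 0.05. B cell markers ran from 100 to 155, 120 to 159 and 96.8 to 115 CPM, and *Blnk* fell. T and NK cell markers ran from 429 to 480, 442 to 555 and 274 to 354 CPM, and *Lck* fell (adjusted p = 0.0593 with limma-voom). Of the 8 LSK markers, which ran from 3406 to 4274, 3769 to 4105 and 3919 to 4353 CPM, 0 passed the threshold (edgeR), 2 did with DESeq2 and 0 with limma-voom, and 3 had an unadjusted p under 0.05. *Ly6g*, *Cd3e*, *Pax5* and the globin genes *Hbb-bs* and *Hba-a1*, which define mature cells of these lineages, were not among the genes tested.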

How the data were processed

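The deposited table holds raw counts, whole numbers of reads that the authors assigned to each gene in 9 RNA-seq libraries. The submitters' processing notes name STAR 2.5.2b, featureCounts of Subread 1.5.0, edgeR and mm10, and the labels name a SMART-Seq kit. Columns with the authors' own comparisons (log2 fold change, p-value and FDR) were not used. The 2 H3K27me3 ChIP-seq samples were not analysed here. No column belonged to a sample outside the series (0 columns).

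Counts were filtered with filterByExpr, scaled with TMM factors and fitted in 1 edgeR quasi-likelihood model (version 4.0.16, R 4.3.3) over the 9 libraries, and p-values of 12625 genes were adjusted by the method of Benjamini and Hochberg. A gene is said to rise or fall where the adjusted p was below 0.05, and intervals are 95%. RPKM used the deposited lengths. Members and lists were chosen with earlier results of these data known. Named genes were all members, their direct neighbours, up to 5 genes per list with the largest change among those that passed, and the 3 genes most like the member with the smallest p. *Kif11* and *Pola1* were named after their values were seen.

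Other settings tried were limma-voom (limma 3.58.1), DESeq2 1.42.0, other scaling factors, no filter, a filter of 10 counts in every library, a replicate block, a fit to 6 libraries, an adjusted p of 0.1, leaving out each library, and 2 that were chosen after seeing the data, namely summed exon lengths and leaving out the 3 libraries with Y-linked reads. On simulated counts for p53-/- against p53+/+ with 200 of 12601 genes changed, edgeR recovered 163 with 6 false calls, and DESeq2 180 with 30. The changed genes were taken from above the median level and changed by at least 2-fold, more than any member in the main fit. This recovery therefore does not describe how readily a change of a member would be found. The counts were drawn with the spread that edgeR estimated for each gene, alike in every library, so they do not rank the tools. Total counts had a median of 20116602 per library, and members had between 108 and 32533 counts in a library. Figures were made with Python 3.11.15.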

Additional observations from a re-analysis of the deposited data

How the results depend on the processing

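Of the 180 log2 fold changes of members under other settings in each comparison, 163, 165 and 167 kept their direction and side of the threshold for p53-/- against p53+/+, p53R248W/+ against p53+/+ and p53R248W/+ against p53-/-. *Cdk6* alone crossed the threshold, in 4 and 2 settings, and 13, 15 and 11 values changed sign. The cause of these changes was not tested.

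For p53-/- against p53+/+, 442 genes passed, and 1552 did with DESeq2, 882 with the replicate block, 894 in the fit to 6 libraries, 264 without the libraries with Y-linked reads and 1309 at an adjusted p of 0.1. Members passing rose from 0 to 1 with DESeq2, the block, the fit to 6 libraries and the threshold of 0.1. Genes of the 4 pathway lists passing were 25 with DESeq2, 16 in the fit to 6 libraries and 23 at 0.1. Leaving out 1 library gave 37 to 1485 genes, 0 to 1 members and 2 to 20 listed genes. For p53R248W/+ against p53+/+, 1 gene passed, and 6 did with DESeq2, 0 with the strict filter, 2 with the block and 2 at 0.1. For p53R248W/+ against p53-/-, 434 passed, and 1325 did with DESeq2, 672 with the block, 208 in the fit to 6 libraries, 46 without the libraries with Y-linked reads and 1069 at 0.1. Members passing were 1 with DESeq2 and at 0.1, and listed genes 24 with DESeq2, 1 without the libraries with Y-linked reads and 18 at 0.1. Leaving out 1 library gave 77 to 1559 genes, 0 to 1 members and 2 to 20 listed genes.

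Without the libraries with Y-linked reads the sign changed for *Ccnd1* (-0.07) in p53-/- against p53+/+, for *Cdk6* (-0.64) and *Rb1* (-0.41) in p53R248W/+ against p53+/+, and for *Ccnd2* (-0.22), *Ccnd3* (-0.16), *Rb1* (-0.36) and *Cdkn1b* (0.21) in p53R248W/+ against p53-/-. *Cdk6* in p53R248W/+ against p53+/+ was -0.02 with limma-voom and -0.01 with the block, and *Cdkn1b* in p53R248W/+ against p53-/- was 0.01 with limma-voom. Leaving out 1 library, values spanned 0 in p53-/- against p53+/+ for *Ccnd1* (-0.21 to 0.54), *Cdk4* (-0.21 to 0.00), *Cdkn1b* (-0.17 to 0.61), *Cdkn2c* (-0.35 to 0.02), *Rbl1* (-0.16 to 0.04), *Rbl2* (-0.21 to 0.38) and *E2f3* (-0.27 to 0.25). In p53R248W/+ against p53+/+ they did so for *Ccnd2* (-0.12 to 0.07), *Cdk4* (-0.19 to 0.15), *Cdk6* (-0.13 to 0.24), *Rb1* (-0.20 to 0.33) and *Rbl2* (-0.23 to 0.18). In p53R248W/+ against p53-/- they did so for *Ccnd2* (-0.01 to 0.17), *Ccnd3* (-0.03 to 0.17), *Cdk4* (-0.09 to 0.27), *Cdkn1b* (-0.33 to 0.46) and *Rbl2* (-0.42 to 0.10).

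With summed exon lengths the family shares in p53+/+, p53R248W/+ and p53-/- were 3.37%, 2.7% and 4.2% for *Ccnd1*, 53.4%, 57.1% and 56.4% for *Ccnd2*, 43.3%, 40.2% and 39.4% for *Ccnd3*, 97.0%, 96.9% and 98.1% for *Cdk4*, and 2.97%, 3.14% and 1.86% for *Cdk6*. *Rbl1* was then 55.7% in p53+/+ and 54.6% in p53-/-, and *Rbl2* 32.3% and 35.1%.

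The replicate numbers were not taken to pair the libraries, since the labels state no pairing and not every correlation of deviations was over 0.1. Same-numbered p53+/+ and p53R248W/+ libraries do have names of the same form, and whether they were prepared together was not given. Between these 2 genotypes the correlations were 0.335, 0.53 and 0.0359. The own number was the best match in 6 of 6 cases, a further hint of a pairing beside the names. With p53-/- the correlations ran from -0.102 to 0.117, and the own number was best in 2 of 12. In all 3 same-numbered pairs *Ccnd1* and *Ccnd3* were lower and *Cdkn1b* and *Cdkn2c* higher in p53R248W/+ than in p53+/+. Under the block their log2 fold changes were -0.40, -0.25, 0.30 and 0.23, and each had an adjusted p of 1. The other members differed in direction between the pairs. How many of all genes kept the same direction in all 3 pairs was not counted, so no pattern is read from these members. The block moved the number of genes passing as given above. With it, *Cdk6* in p53-/- against p53+/+ had a log2 fold change of -0.78 and an adjusted p of 0.0433, where 6.99% of all genes passed. The block also grouped the p53-/- libraries by number, for which the matches above gave no hint of a pairing. With 3 libraries per genotype and a biological coefficient of variation of 0.281, the 95% interval of a member's log2 fold change reached a median of 0.51 to either side, which limits what these libraries can show.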
